A study of Homo sapiens with 2 samples.

Results

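Genes of the cell cycle and of DNA replication were examined for peaks of the kinase mTOR on chromatin. The 60 members are a list of gene symbols covering origin recognition and helicase loading, the replicative helicase, the clamp, its loader and RPA, the polymerases and primase, cyclins and their kinases, E2F factors, and mitotic regulators with the phosphatase gene CDC25A. They are 60 of 19970 protein-coding genes on chromosomes 1 to 22 and X, and 53 of the 21440 deposited peaks were assigned to them. All 60 symbols matched a current gene, and all 53 peaks matched by gene identifier and by name. The cells were MDA-MB-231, a line long established from a human breast cancer of the triple-negative kind, grown in DMEM with serum and penicillin-streptomycin, and the labels give no other treatment. The series asks about a nuclear complex in which mTOR meets PML, the protein of PML bodies, and RONIN, a zinc finger protein encoded by THAP11. The 2 libraries were 1 from chromatin enriched with an antibody against mTOR (chromatin immunoprecipitation and sequencing, ChIP-seq) and 1 from input chromatin. Neither had a replicate, so no test is given, and intervals cover counting error only. A peak list holds no expression, so the cell line was not checked against its markers, and no library made with a control antibody was used here.

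Replication starts where the origin recognition complex (ORC), CDC6 and CDT1 load the ring-shaped MCM helicase on DNA in G1. Kinases then join CDC45 and GINS to the ring, and polymerases copy the opened strands on the sliding clamp PCNA. Cyclin-dependent kinases time these steps, and E2F factors raise transcription of many of these genes before S phase, whereas many mitotic genes are driven later through a promoter element called CHR. mTOR is best known as a cytoplasmic and lysosomal kinase that couples nutrients to growth and to passage through G1.

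A promoter peak means here a peak assigned to the gene in the deposited annotation that overlaps 1 kb either side of the assigned start site. Every other assigned peak is called distal. Of the 60 genes, 17 had a promoter peak (28.3%, exact Clopper-Pearson 95% interval 17.5 to 41.4%), while over all protein-coding genes the share was 15.5%. Another 12 had distal peaks only, and 31 had no assigned peak, beside 5228 and 11646 of the 19970 protein-coding genes. Counting peaks at any distance, 29 of the 60 had at least 1 (48.3%), beside 41.7% of all protein-coding genes. The members thus stood further from the background in promoter peaks than in peaks at any distance. In the plot by role, helicase genes showed the largest promoter share of the groups with more than 3 genes, and the group of mitotic regulators and CDC25A had none.

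**Figure D1:**
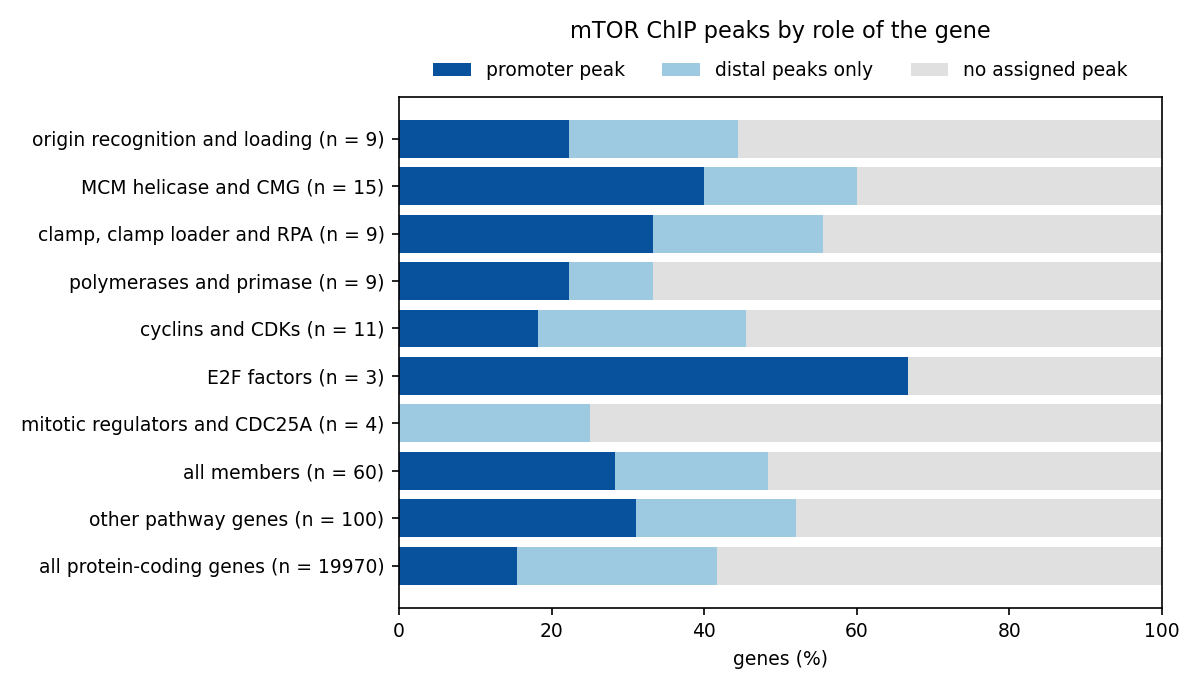
Share of genes (percent, x axis) with a promoter peak, with distal peaks only and with no assigned peak, for the 7 role groups, all 60 members, 100 other pathway genes and all 19970 protein-coding genes. Helicase genes reached 40.0% with a promoter peak, the group of mitotic regulators and CDC25A had 0 of 4, and all protein-coding genes had 15.5%.

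By role, promoter peaks were found at 6 of 15 genes of the MCM helicase and its CMG partners, 3 of 9 of the clamp, loader and RPA group, 2 of 9 origin genes, 2 of 9 polymerase and primase genes, 2 of 11 cyclin and CDK genes, 2 of 3 E2F genes and 0 of 4 in the group of mitotic regulators and CDC25A. These groups are small: the interval for the helicase genes ran from 16.3 to 67.7%, and that for the group with 0 of 4 reached 60.2%. All the intervals overlapped, so the order of the groups is not resolved. The 42 replication genes of the first 4 groups had 13 promoter peaks (31.0%) and the other 18 genes had 4 (22.2%).

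The sequences that lie under these peaks are shown for 5 of the genes, beside 2 promoters without a peak. They are RefSeq promoter windows on GRCh38.p14, from 250 bases before to 50 bases after a start site, written 5′ to 3′ along the gene. Capitals mark exact matches to letters of the E2F type, the CHR type and parts of the site bound by ZNF143 and RONIN, on either strand. CDC45 (chr22:19479216-19479515, plus strand), GINS3 (chr16:58392221-58392520, plus strand) and RFC1 (chr4:39366313-39366612, minus strand) carried the best-scoring promoter peaks among the members with a window. E2F2 (chr1:23531184-23531483, minus strand) is the E2F gene whose peak sat on the start, and PRIM1 (chr12:56752274-56752573, minus strand) holds the letters ACTACAA of the ZNF143 and RONIN site. CDC6 (chr17:40287629-40287928, plus strand) and PLK1 (chr16:23678639-23678938, plus strand) had no assigned peak and show E2F-type and CHR-type letters for comparison.
CDC45: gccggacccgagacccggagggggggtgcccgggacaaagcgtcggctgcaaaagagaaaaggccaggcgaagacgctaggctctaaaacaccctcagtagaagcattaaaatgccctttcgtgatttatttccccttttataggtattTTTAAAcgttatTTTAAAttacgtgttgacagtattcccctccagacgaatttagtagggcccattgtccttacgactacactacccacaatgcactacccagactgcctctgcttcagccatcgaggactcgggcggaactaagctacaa
GINS3: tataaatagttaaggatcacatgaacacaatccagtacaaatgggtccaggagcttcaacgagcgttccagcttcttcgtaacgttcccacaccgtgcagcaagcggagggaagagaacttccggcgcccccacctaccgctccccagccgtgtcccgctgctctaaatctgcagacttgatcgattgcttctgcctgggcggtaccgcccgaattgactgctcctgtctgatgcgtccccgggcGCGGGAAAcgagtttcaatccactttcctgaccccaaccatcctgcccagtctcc
RFC1: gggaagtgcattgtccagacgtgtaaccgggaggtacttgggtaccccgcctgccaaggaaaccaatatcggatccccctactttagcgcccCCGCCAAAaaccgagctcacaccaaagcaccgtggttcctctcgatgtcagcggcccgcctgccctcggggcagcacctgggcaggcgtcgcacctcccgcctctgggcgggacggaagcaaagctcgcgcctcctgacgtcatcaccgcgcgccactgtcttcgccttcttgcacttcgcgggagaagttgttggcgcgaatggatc
E2F2: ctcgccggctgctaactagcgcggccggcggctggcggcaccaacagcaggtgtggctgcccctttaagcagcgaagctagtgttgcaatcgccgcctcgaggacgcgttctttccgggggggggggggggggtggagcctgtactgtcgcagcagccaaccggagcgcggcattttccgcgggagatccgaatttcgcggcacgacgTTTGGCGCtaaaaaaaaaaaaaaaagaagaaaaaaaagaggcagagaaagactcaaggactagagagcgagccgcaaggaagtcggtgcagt
PRIM1: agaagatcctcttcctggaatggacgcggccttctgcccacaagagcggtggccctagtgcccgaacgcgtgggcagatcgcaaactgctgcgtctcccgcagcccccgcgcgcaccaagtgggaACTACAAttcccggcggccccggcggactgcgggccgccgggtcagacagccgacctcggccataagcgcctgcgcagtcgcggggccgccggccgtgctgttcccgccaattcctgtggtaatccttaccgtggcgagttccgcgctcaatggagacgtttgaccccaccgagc
CDC6: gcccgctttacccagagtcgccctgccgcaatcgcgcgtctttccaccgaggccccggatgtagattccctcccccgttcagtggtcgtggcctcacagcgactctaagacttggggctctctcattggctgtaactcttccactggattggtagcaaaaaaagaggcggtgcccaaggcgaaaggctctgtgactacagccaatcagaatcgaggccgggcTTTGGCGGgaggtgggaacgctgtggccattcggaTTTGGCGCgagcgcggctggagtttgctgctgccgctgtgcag
PLK1: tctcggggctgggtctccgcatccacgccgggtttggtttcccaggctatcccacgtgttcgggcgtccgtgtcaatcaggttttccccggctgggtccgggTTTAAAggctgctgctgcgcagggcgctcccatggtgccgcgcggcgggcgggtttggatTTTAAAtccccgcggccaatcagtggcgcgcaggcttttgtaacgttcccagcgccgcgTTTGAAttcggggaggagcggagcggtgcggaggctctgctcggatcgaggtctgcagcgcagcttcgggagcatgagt
The peaks covered all 300 bases of the CDC45, GINS3 and E2F2 windows, 277 bases of the RFC1 window and 278 bases of the PRIM1 window. In GINS3, RFC1 and E2F2 the capitals are E2F-type letters, which begin at -5, -158 and -42 bp from the start. The CDC45 window printed, the second in RefSeq, has a pair of CHR-type matches at -101 and -89 bp. The first CDC45 window, of which the peak covered 16 bases, has no CHR-type match and has the E2F-type letters TTTGGCGG at -25 bp. CDC6, without a peak, has E2F-type letters at -28 and 8 bp, so this type of sequence was present with and without a peak. PLK1 has CHR-type letters at -148, -88 and -29 bp.

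Each peak has a score deposited by the authors, whose scale is not stated, so that it is used only to rank peaks within the list. Over the 17 members' promoter peaks the lowest score was 22, the median 104 and the highest 400. The 3334 promoter peaks of protein-coding genes had a median of 54 and an upper quartile of 96. Of the 17, 10 lay above that quartile (58.8%) and 5 above the upper decile of 191. Replication genes held both the highest and the lowest score, with a median of 138 over 13 peaks (22 to 400). The 4 cyclin and E2F peaks had a median of 41 (23 to 104). Scores of promoter peaks followed peak width (Spearman's rho 0.59 over the 17, and 0.47 over the 3334, across peaks of 1 library). Widths of the 17 ran from 271 bp at GINS2 to 1654 bp at MCM7. Their median width was 507 bp, beside 446 bp for all protein-coding promoter peaks. The part of width in the scores was not tested.

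**Figure D2:**
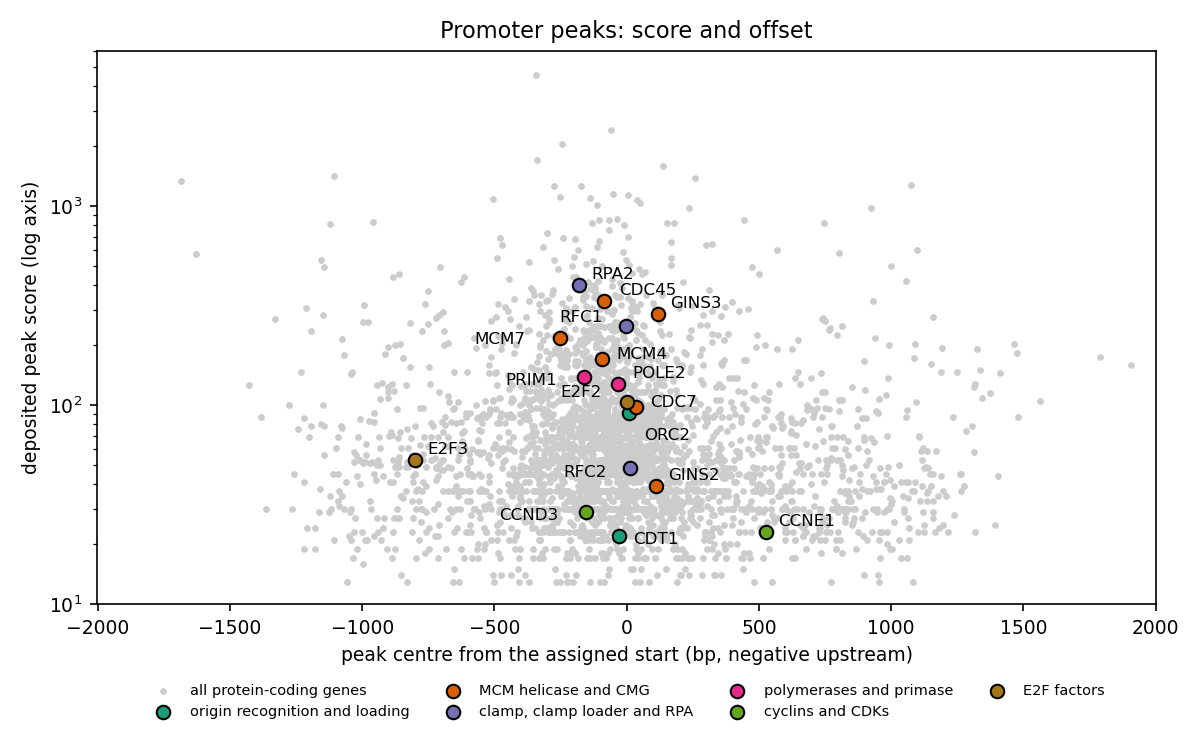
Deposited score (y axis, log) against the distance of the peak centre from the assigned start (x axis, bp, negative upstream) for promoter peaks of protein-coding genes (grey) and of members (colours by role, labelled). Members sit between scores of 22 and 400, with all but E2F3, CCNE1 and MCM7 within 200 bp of the start.

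The peaks sat close on the assigned start sites. In 14 of the 17 the centre was within 200 bp of the start (82.4%), whereas 48.8% of all protein-coding promoter peaks were that close. The start itself lay under 15 of the 17 peaks (88.2%, 63.6 to 98.5%), beside 56.2% in all protein-coding promoter peaks. Centres were upstream in 10 of 17, a share of 58.8% beside 57.3%, with a median offset of -30 bp beside -46 bp. A repeat label at the centre was found in 0 of the 17 and in 3.92% of all promoter peaks in the list. The members were near the background in this. The label of 14 of the 17 was the promoter class itself, which leaves no place for a repeat or CpG label. The 0 is therefore not read as a trait of these peaks. The exceptions to a central position were E2F3, at -799 bp, and CCNE1, at 525 bp. MCM7, centred at -252 bp, still reached its start through its width. These offsets depend on which start was assigned. From the start listed first in RefSeq, centres lay at -539 bp for CDC45, 365 bp for MCM7, -358 bp for CCND3 and 291 bp for CDC7. For the other members with a RefSeq promoter window, E2F3 and CCNE1 aside, the centre stayed within 200 bp.

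Among origin genes, ORC2, a core subunit of the complex, had a peak of score 91 across its start (chr2:200963457-200963844, centre 10 bp downstream). CDT1, the loader that brings MCM rings to ORC, had a weak promoter peak of 22 (chr16:88803555-88803963, -30 bp), the lowest score of the 17, and a second of 42 centred 1918 bp upstream. A further 2 peaks, of 42 and 24, lay within the last part of CDT1 and just beyond it, and were assigned to the neighbour APRT. ORC5 had 3 distal peaks, of which 2 lay in its own intron 8, with scores of 225 over a MER101-int element and 87 over an L1PA8 element. The only peak given to ORC4 lay 232278 bp upstream in an intron of MBD5 over an LTR18A element, and its nearest start was that of ORC4. ORC1, ORC3 and ORC6, the loading ATPase CDC6, and GMNN, which encodes the CDT1 inhibitor geminin, had no assigned peak.

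The helicase genes carried several of the high scores. CDC45, the factor that completes the active helicase with MCM and GINS, had the highest in this group, 331, at chr22:19479078-19479685, rank 126 among the 3334 protein-coding promoter peaks. Its centre lay 85 bp upstream of the start of the assigned transcript, but at -539 bp from the CDC45 start listed first in RefSeq. The deposited promoter class names a transcript of the neighbour UFD1, a gene for a protein of the ubiquitin segregase machinery. MCM7, a ring subunit, had 218 over a wide peak of 1654 bp (chr7:100100206-100101859) whose class names AP4M1, which encodes an adaptor subunit. At CDC45 and MCM7 the peak thus lies at start sites of both neighbours, and to which of them it belongs cannot be told apart from the assignment.

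GINS subunits hold CDC45 and MCM together. GINS3 had 285 at chr16:58392139-58393037, centred 117 bp inside the gene and classed as 5′ UTR, with distal peaks of 230 and 166 on either side over L1M1 and L2a elements. GINS2 had a weak peak of 39 in exon 1, 110 bp downstream of its start, while its strongest, 323, lay 23372 bp upstream over an MLT1F1 element in an intron of C16orf74. GINS1 had a single peak of 165, 4824 bp upstream over an LTR3A element, and GINS4 had none. So the GINS genes with high scores included both a start-site peak and repeat-labelled sites far from it. CDC7, the kinase that phosphorylates MCM to fire origins, had 98 at its start (chr1:91500711-91501574, 34 bp) and repeat-labelled peaks of 85 and 87 at 34709 and 129909 bp. A start of LOC105378856 on the other strand lies within 1 kb upstream of the CDC7 starts. To which of these genes the peak of 98 belongs was not tested.

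Of the ring subunits MCM2 to MCM7, MCM4 also had a promoter peak, with 170 at chr8:47960580-47961114, 94 bp upstream of the start. MCM4, like RPA2, had no matched RefSeq promoter window, so a start of a neighbour was not looked for there. MCM5 had only a peak of 53 at 33604 bp. MCM2, MCM3 and MCM6 had no assigned peak, although their proteins sit in the same ring. MCM10, which helps start synthesis, had a peak of 45 over an L1PA4 element 5541 bp upstream, and the meiosis and repair helicase genes MCM8 and MCM9 had none.

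RPA coats single-stranded DNA. RPA2, its middle subunit, had the highest score of all members, 400, at chr1:27914592-27915367, centred 182 bp upstream and ranked 90 among 3334. RPA3 had a peak of 78 over L1MA3 in intron 2, and RPA1 had none. RFC1, the large subunit of the clamp loader, had 248 with its centre 2 bp from the start (chr4:39366139-39366589) and a distal peak of 74 over THE1B-int. RFC2 had 48, 13 bp downstream of the start (chr7:74254241-74254532). RFC3 had peaks of 69 and 74 more than 80 kb away over L1MA4 and L2c, whereas RFC4, RFC5 and the clamp gene PCNA had none. Within RPA and within RFC the subunits of 1 complex thus ranged from no peak to a start-site peak.

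Among polymerase genes, PRIM1, the catalytic primase subunit, had 138 at chr12:56752296-56752673 (-161 bp). POLE2, the second subunit of the leading-strand polymerase, had 127 over a wide peak of 1570 bp at chr14:49687463-49689032 (-33 bp). POLD3, an accessory subunit of polymerase delta, had 126 upstream over LTR18A and 52 in intron 7 over L1PA3. POLA1, POLA2, PRIM2, POLD1, POLD2 and POLE had no assigned peak. POLA1 is the only member on X. Peaks within the spans of PRIM2 (44, over L1PA4) and POLD1 (23, in the last intron of a POLD1 transcript) were assigned to MIR548U and SPIB. None of the catalytic polymerase subunits POLA1, POLD1 and POLE had a start-site peak. Only 15.5% of all protein-coding genes had a promoter peak, so this is not read as a trait of these subunits.

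Cyclins had weaker promoter peaks. CCND3, a D-type cyclin that opens the G1 programme with CDK4 and CDK6, had 29 at chr6:42048827-42049266 (-152 bp). Its centre was at -358 bp from the CCND3 start listed first in RefSeq. From the other listed starts it was at -107238 and -109841 bp, and the peak covered 0 bases of their windows. A peak of 30 at the start of the neighbour TAF8 lay 509 bp beyond the CCND3 span. CCNE1, the partner of CDK2 at S phase entry, had 23 in intron 1, 525 bp downstream (chr19:29812274-29812758), and distal peaks of 82 and 68 at 25588 and 32528 bp. CCNE2 had none assigned, but a peak of 30 assigned to NDUFAF6 lay across the start of this minus-strand gene (chr8:94896354-94896709), centred 162 bp inside it. CCNB2 had peaks of 40 at its 3′ end and 17 beyond it. CCNA2, CCNB1, CDK1, CDK2 and CDK4 had no assigned peak. CDK6 had 3 distal peaks over repeats, the highest with 234 in its intron 2 over L1M4.

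CCND1, which encodes cyclin D1, had the most peaks of the 60 genes: 7, a number reached by 156 protein-coding genes (0.781%). None lay within 1 kb of the start. Upstream, 3 peaks with a CpG label followed each other at 4345, 3517 and 2261 bp with scores of 146, 37 and 35, spanning 2497 bp in all (from chr11:69636551-69636970 to chr11:69638641-69639047). Another peak with that label, of 26, lay in intron 2 at 2574 bp. The others were a peak of 70 in the 3′ UTR, one of 45 over L1PA5 at 50764 bp and one of 16 at 72946 bp. The CpG-labelled cluster flanked the start without covering it.

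E2F2 had a peak of 104 with its centre 2 bp from the start (chr1:23530952-23531510). E2F3 had 53 at chr6:20402627-20403133, which lay between alternative starts: its centre was at 1001 bp from the first RefSeq start and at -734 bp from the second. A start of LOC124901482 on the other strand lies within 1 kb upstream of the second E2F3 start. To which of these genes the peak of 53 belongs was not tested. E2F1, the best-studied activator of this family, had no assigned peak. In the group of mitotic regulators and CDC25A, the spindle checkpoint kinase gene BUB1 had 1 peak of 37 over MER21C at 9589 bp upstream. PLK1, CDC20, the activator of the anaphase-promoting complex, and CDC25A, a phosphatase that switches on CDKs, had none.

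**Figure D3:**
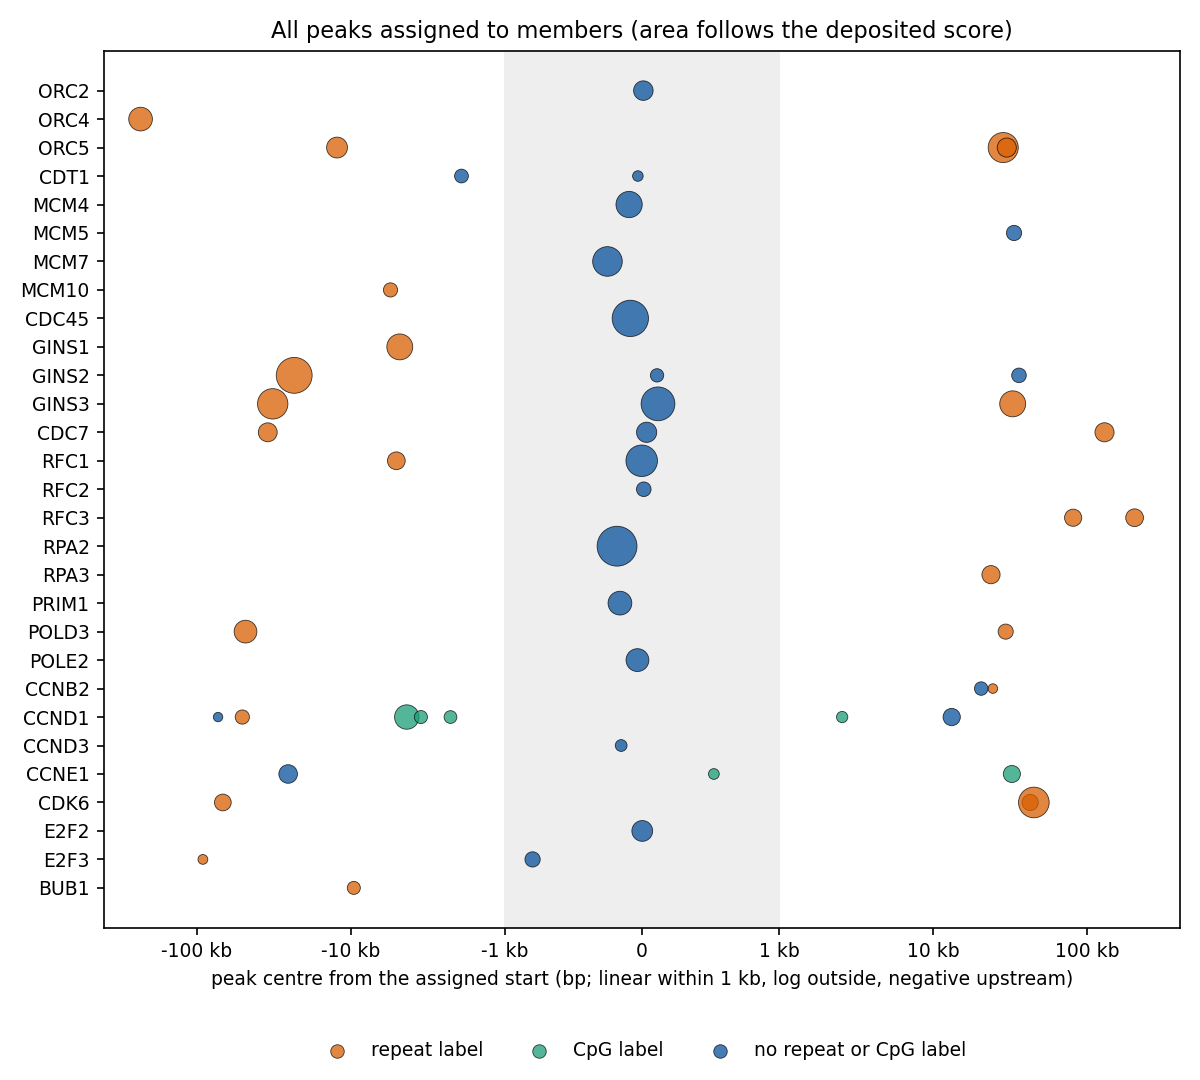
All 53 peaks assigned to members, 1 row per gene with a peak, by distance of the centre from the assigned start (x axis, linear within 1 kb and log outside). Circle area follows the deposited score and colour the label of the peak centre; the grey band is 1 kb either side of the start, where none of the 17 peaks has a repeat label, while 24 of the 36 outside it do.

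Labels of distal peaks are given apart, since most promoter peaks of the members had the promoter class as their label. Of the 36, 24 had a repeat label at the centre (66.7%, 49.0 to 81.4%), beside 77.5% of all distal peaks in the list. They comprised 14 LINE, 9 LTR and 1 SINE element, with 11 of the LINE elements in the L1 family. The median distal score was 69.5, beside 61 for all distal peaks, and the median distance 29.9 kb, beside 31.5 kb. In these measures distal peaks of the members were near those of the whole list. CpG labels marked 5 distal peaks, 4 of CCND1 and 1 of CCNE1, while 2.22% of all distal peaks had one. Without CCND1, 23 of 29 distal peaks had a repeat label (79.3%). A promoter and a distal peak occurred together at 7 genes, namely CDT1, GINS2, GINS3, CDC7, RFC1, CCNE1 and E2F3. That count has no background over all protein-coding genes beside it and is not read further.

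Promoter composition was compared in the first RefSeq window of each gene, which 51 of the 60 members had. RPA2, MCM4, MCM5, GINS4, POLD3, RPA3, CCND1, CCNE2 and CDK2 were not matched. Median GC content was 67.3% in the 15 windows of genes with a promoter peak and 64.2% in the 36 without. The same medians over all protein-coding windows were 65.7% and 62.0%. The order among members turned when only peaks scoring 61 or more were counted, with medians of 62.7% and 64.7%. CpG-rich windows, with GC over 55% and a CpG observed over expected ratio over 0.6, were found in 45 of the 51 members. Of these 45, 15 had a promoter peak (33.3%, 20.0 to 49.0%), beside 21.5% of all protein-coding genes with such a window. The other 6 members had 0. The distance to the background was therefore smaller among CpG-rich promoters, and the interval of the members includes that background.

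Letters of known promoter elements were counted on both strands of the same windows. The E2F type was any of TTTGGCGC, TTTCCCGC, TTTCGCGC, TTTGCCGC, TTTGGCGG or TTTCCCGG. It occurred in the windows of 9 of 15 members with a promoter peak (60.0%) and of 16 of 36 members without (44.4%), but in 7.09% of all 15811 protein-coding windows. A promoter peak of the gene need not lie on this window: it covered 0 bases of the first windows of E2F3 and CCNE1 and 16 of that of CDC45, and those of E2F3 and CDC45 hold the letters. Windows of members with and without a promoter peak both held the E2F type more often than protein-coding windows as a whole. Among all protein-coding genes, 23.4% of those with E2F-type letters had a promoter peak and 15.7% of those without them. Among members the shares were 9 of 25 and 6 of 26. By role, E2F-type letters were in 10 of 12 helicase windows and 3 of 3 E2F windows.

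CHR-type letters, TTTGAA or TTTAAA, were in 4 of 8 cyclin and CDK windows and 2 of 4 windows of the mitotic regulators and CDC25A, and in 0 first windows of the 4 replication groups. Over all members the count was 7 of 51 (13.7%), beside 19.5% of all protein-coding windows. CCAAT, the NF-Y box, was in the windows of 7 of 15 members with a promoter peak and of 25 of 36 without, beside 36.3% of all windows. GGGCGG, the GC box, was in 12 of 15 and 27 of 36, beside 58.5%. Some of the E2F-type letters, TTTGGCGG for example, can overlap a GC box by shared letters. The parts of the ZNF143 and RONIN site, ACTACAA and CCCAGAA, were each in the window of 1 member with a promoter peak, PRIM1 and CDC45, beside 3.15% and 8.13% of all windows. CCCAGAA was also in the window of CDK4, which had no peak. The CCCAGAA match of CDC45 lies in its first RefSeq window, not in the one printed. Only exact letters were searched, so sites with a differing letter were not counted in any window. The printed CDC45 window holds ACTACAC and CCCAGAC, which differ from these parts in the last letter. Between them lies CCCACAA, which differs from CCCAGAA in a single letter. Whether these letters make up a site bound by ZNF143 or RONIN was not tested. CACGTG was in 1 of 15 and 8 of 36 windows, beside 8.87%. CCGGAAG, of the ETS type, was in 2 of 15 and 6 of 36, beside 14.2%. TGACGTCA, the CRE, was in 1 of 15 and 3 of 36, beside 2.59%. GCGCATGC, of the NRF1 site, was in 1 of 15 and 2 of 36, beside 4.26%, and AAGATGGC, of the YY1 site, in 0 of 51, beside 3.91%.

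**Figure D4:**
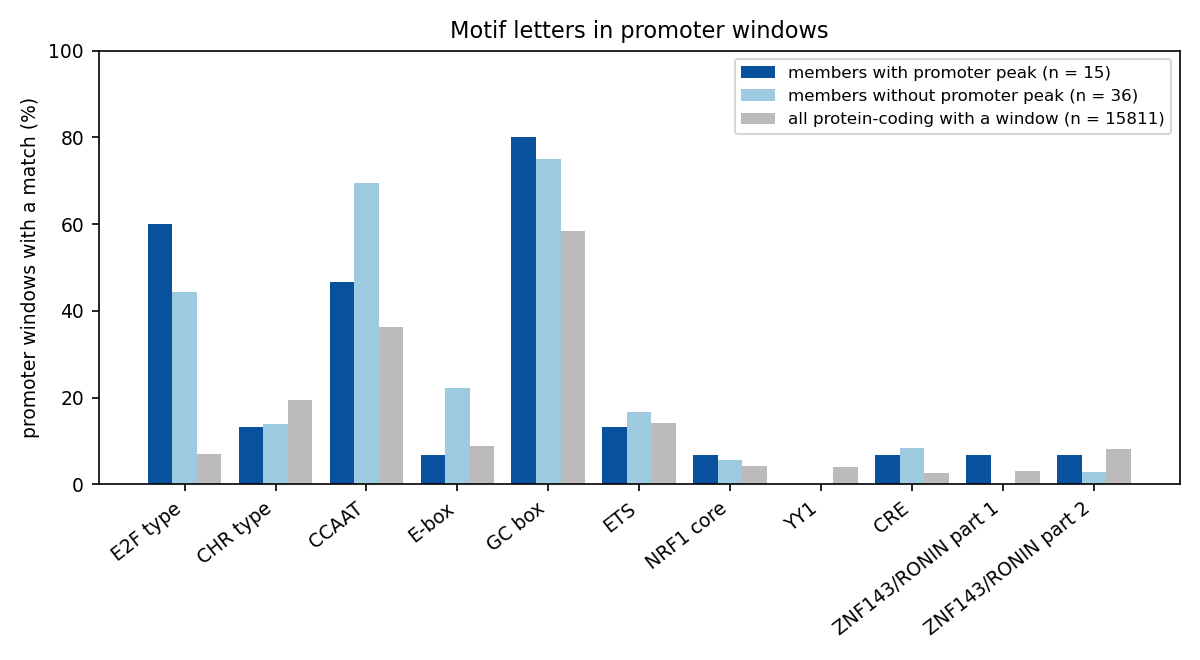
Share of promoter windows (y axis, percent) with a match to each set of motif letters (x axis), for members with a promoter peak (n = 15), members without (n = 36) and all protein-coding windows (n = 15811). E2F-type letters stand out in both member groups, at 60.0% and 44.4% beside 7.09%, and CCAAT is more frequent in members without a peak.

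Other genes of the same pathway, a list of 100 chosen for their known roles, gave a share close to that of the members, with a promoter peak at 31 (31.0%, 22.1 to 41.0%). Their median promoter score was 53, beside 104 for the members and 54 for all protein-coding promoter peaks. E2F6, a repressive E2F, had the highest with 639, followed by CCNG2, an unconventional cyclin, with 346. BIRC5, which encodes the chromosomal passenger protein survivin, had 284, and RBL1, the pocket protein p107, had 229. ANAPC5, of the anaphase-promoting complex, had 218, and SMC3, of the cohesin ring, had 138. RRM2, the small subunit of ribonucleotide reductase, had 109 with its centre 901 bp upstream, CDC16, also of the anaphase-promoting complex, 106, CDC25B 102 and RBL2 100. E2F7, another repressive E2F, had 7 assigned peaks and none of them at the promoter.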

How the data were processed

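For the enriched library a single table of annotated peaks was used, while the input library had no file among those analysed. The submitters' processing notes name hg38 as the build and list HOMER 4.11.1, MACS2 2.1.1.20160309, Picard 2.0.1, BWA 0.7.12 and Trimmomatic 0.36, but no settings. The sources used here do not give the peak threshold or the handling of duplicate and multiply aligned reads, either of which could change the weak and repeat-labelled peaks. Each peak has a position, a whole-number score deposited by the authors, an annotation and a distance to its nearest start, per the file headers. Depth is unknown.

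Genes were matched by identifier to RefSeq genes on GRCh38.p14, a later patch of the same assembly. The RefSeq promoter window listed first stood for a gene. Promoter peaks were defined by the deposited distance and the peak width. The members, the lists, the motifs and the alternatives were chosen with earlier results of these data known, and the CpG-rich background and the count without CCND1 were added after the data were seen. Every member is named, and of the other pathway genes the 10 with the highest promoter score, with E2F7 added after its values were seen. Alternatives were score limits, narrower and wider start-site windows, the deposited class, the overlap required, assignment by gene span, and repeat-labelled peaks left out. Counting steps were tested on simulated data. The software was Python 3.11.15 with scipy 1.17.1, numpy 2.4.6, pandas 2.3.3 and matplotlib 3.10.9.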

Additional observations from a re-analysis of the deposited data

How the results depend on the processing

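With 1 library of unknown depth, weak peaks limit every count. Among the 10724 peaks scoring 61 or more, the 17 members with a promoter peak became 11 (18.3%; background 7.45%), and among the 2147 scoring 200 or more they became 5 (8.33%; background 1.58%), namely RPA2, CDC45, GINS3, RFC1 and MCM7. The median score of member promoter peaks was 170 instead of 104 under the first limit, with a background of 104 instead of 54, since the limit removes low scores. The 31 other pathway genes became 15 and 5. Members with any peak fell from 29 to 8 under the stricter limit (13.3%; background 7.03%). The promoter share of member peaks, 32.1%, was 55.6% under the stricter limit (background 17.0%) and 58.6% without repeat-labelled peaks (background 47.9%), a setting that removes distal peaks by construction. Apart from the gene span setting, the other alternatives gave 14 to 19 members with a promoter peak. The gene span setting gave 21 members, but it also counts peaks at the end of a gene, so these are not all promoter peaks. CCNE1 and E2F3 were lost with 100 bp, and CCNE1, GINS2 and GINS3 with the deposited promoter class. CCND1 and GINS1 were gained with 5 kb, and CCNB2, CCND1, CCNE2 and POLD1 by either end of the gene span. In that last setting the peaks gained at CCNB2, CCND1 and POLD1 lay at the end of the gene, and only the CCNE2 peak lay at a start. No paired analysis was possible because each group has 1 library.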
